A study of Mus musculus with 6 samples.

Results

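The genes described here mark the blood vessels of the brain: 17 genes of endothelial identity, 10 genes of the blood-brain barrier and 12 genes of mural cells, the pericytes and smooth muscle cells that wrap the endothelium. They were chosen as the entries of the deposited table whose symbol is on a list of 39 vascular marker genes, and all 39 were found among its 24972 genes. RNA had been sequenced from the cortex of mice at postnatal day 7, in 3 libraries from Zmiz1f/f mice, called wildtype, and 3 from Zmiz1f/f;Emx1Cre mice, called Zmiz1-KO. The floxed Zmiz1 alleles were thus present in both groups, and Cre under the control of Emx1 acts in the progenitors of the dorsal forebrain. Zmiz1 itself stood at 8119, 7929 and 7461 normalized counts in replicates 1, 2 and 3 of wildtype and at 9944, 9779 and 9660.2 in those of Zmiz1-KO, higher under the label of its deletion (log2 fold change 0.32, limma adjusted p = 0.00125), so the second group is called the KO-labelled libraries. Since values are per gene, reads from a transcript without the floxed exons cannot be told apart from others. The paper reports lower Zmiz1 by quantitative PCR in Zmiz1-KO samples than in controls, and whether these were the sequenced samples is not stated. Whether the labels were exchanged was not tested, and exchanged labels would turn every direction given here. Emx1, whose control drives Cre, had 818, 688 and 784 normalized counts in wildtype and 532, 473 and 583 in the KO-labelled libraries (log2 fold change -0.53 ± 0.090 SE, limma adjusted p = 0.0150). It was called lower and lost the call without wildtype replicate 1, without wildtype replicate 3, without KO-labelled replicate 1, in the 4 libraries with high Y-linked expression alone and without robust estimation, with adjusted p values from 0.00202 to 0.0882 over all settings tried. Whether a library stands for 1 animal is not stated, and p values here measure the spread between these libraries.

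Brain endothelial cells form the blood-brain barrier by sealing their contacts with tight junctions and by carrying nutrients, hormones and drugs through dedicated transporters. Pericytes are recruited by platelet-derived growth factor from the endothelium and stabilise the vessel wall, while smooth muscle cells of arterioles contract to set blood flow. Endothelial cells arise from mesoderm and the mural cells of the forebrain largely from the neural crest, outside the lineage in which Emx1 is active.

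The deposited values are counts of reads per gene that the authors normalized, called normalized counts below and given in the order of replicates 1, 2 and 3. The estimated number of counted reads, a library's sum divided by its most common low value, was 16553639, 15494272 and 16031933 in wildtype and 16562288, 17857835 and 16267903 in the KO-labelled libraries. That low value was sought only near 2 and ran from 1.829 to 2.109. Whether it stands for 1 read is not known, and the estimate holds only if it does. All 39 vascular genes had at least 10 normalized counts in every library and were among the 15800 genes tested, which had at least 10 in at least 3 libraries. Their values ran from 30.3 for Ly6a in KO-labelled replicate 3 to 6209.8 for Slc7a5 in the same library. The coefficient of variation over the 6 libraries ran from 1.6% for Slc7a5 to 45.0% for Ly6a, with a median of 7.94% over the 39 genes.

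Levels can be compared between genes only per length, here as the mean over 6 libraries per kilobase of merged exons. On this scale Cldn5, the main claudin of the brain endothelium, had the highest level of the 39 genes (1648 normalized counts per kilobase). Slc7a5, a carrier of large neutral amino acids that cells other than endothelium also express, followed closely at 1646. By the wildtype mean alone Slc7a5 stood above Cldn5 per kilobase. Itm2a, a membrane protein enriched in brain endothelium, stood at 1182 and Vtn, the vitronectin that brain pericytes secrete, at 1161. The lowest levels per kilobase were those of Emcn, the endomucin of venous and capillary endothelium (20.02), and of the arterial transcription factor gene Sox17 (26.0). Within each of the 3 groups of genes the levels thus spanned more than an order of magnitude.

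None of the 39 genes was called, that is, 0 had an adjusted p at or under 0.05 with limma, where 65 of the 15800 tested genes (0.411%) were called, 26 of them higher and 39 lower. The count of called vascular genes was 0 with limma-voom as well. At an unadjusted p under 0.05 with limma there were 7 vascular genes (17.9%), beside 1733 of all tested genes (11.0%). Wildtype and KO-labelled values did not overlap for 8 vascular genes (20.5% of the 39), beside 16.3% of all tested genes. Of these 8 genes, 5 were higher in the KO-labelled libraries, namely Itm2a, Cd34, Cldn5, Slc16a1 and Pdgfrb, beside 8.10% of all tested genes, and 3 were lower, namely Flt1, Sox17 and Slco1c1, beside 8.16%. Single libraries moved the counts of calls: over all tested genes the count was 30 without wildtype replicate 1, 17 without KO-labelled replicate 1, 151 without KO-labelled replicate 2 and 12 without KO-labelled replicate 3. Among the vascular genes 1 was called without wildtype replicate 1 (Rgs5) and 1 without KO-labelled replicate 2 (Vwf).

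Log2 fold changes, KO-labelled over wildtype, were positive in 17 and negative in 22 of the 39 genes and ran from -0.32 for Abcc9 to 0.18 for Vtn, with a median of -0.0053. Their median size was 0.076, and over all tested genes the median size was 0.075 and the median -0.00018. In 31 of the 39 genes the fitted change was smaller than 10%. The 95% interval of the change lay within 1.2-fold in either direction for 17 genes and within 1.5-fold for 35. The 4 genes with wider intervals were Ly6a, Ly6c1, Rgs5 and Sox17. In RNA from whole cortex, fewer vascular cells and less RNA of a gene per cell cannot be told apart.

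**Figure D1:**
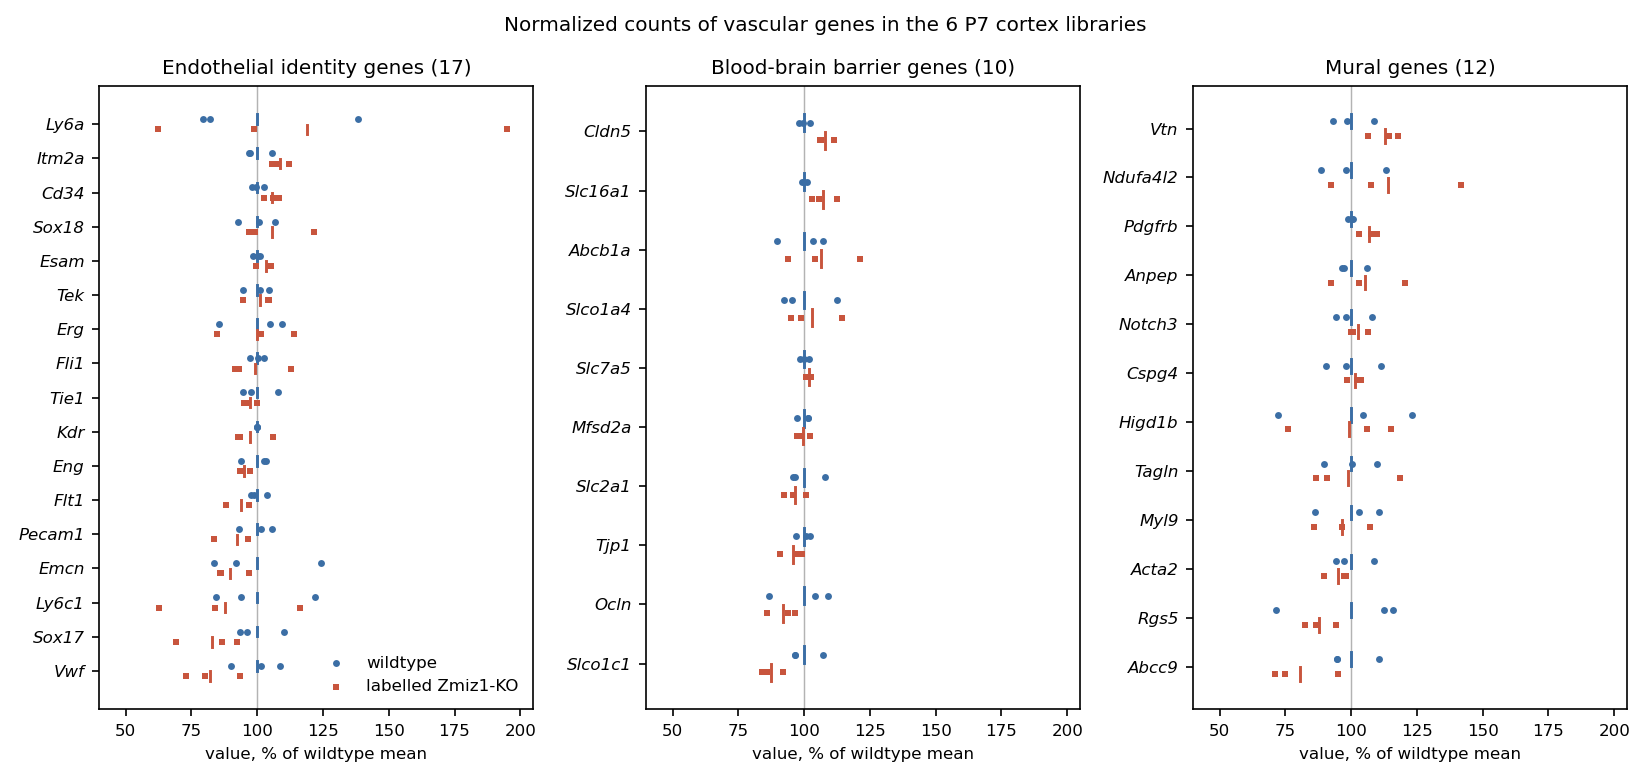
Normalized counts of the 39 vascular genes in each of the 6 libraries as a percentage of the gene's wildtype mean, with circles for wildtype, squares for the KO-labelled libraries and vertical bars for the group means. The groups did not overlap in 8 genes (20.5%, beside 16.3% of all tested genes), 5 of them higher and 3 lower in the KO-labelled libraries.

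The 17 endothelial genes included the receptors through which vessels read growth signals. Flt1, a receptor that binds vascular endothelial growth factor (VEGF) and limits its action, had 1067, 1016 and 1004 normalized counts in wildtype and 908, 996 and 999 in the KO-labelled libraries. All 3 wildtype values lay above the KO-labelled ones, but the closest pair differed by a few counts (log2 fold change -0.09 ± 0.064 SE, limma adjusted p = 0.657). Kdr, the main signalling receptor for VEGF, had 1625, 1627 and 1627 normalized counts in wildtype and 1521, 1723 and 1506 in the KO-labelled libraries. Its wildtype values were nearly equal and lay inside the range of the other group, with a 95% interval of the log2 change from -0.16 to 0.08. Tek and Tie1, the receptor kinases of the angiopoietin pathway, differed by 0.01 and -0.04 on the log2 scale. Eng, a co-receptor for transforming growth factor beta on endothelium, differed by -0.07, and the groups overlapped in each of these 3 receptor genes.

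Among surface and junction proteins, Pecam1, the adhesion molecule by which endothelium is commonly identified, had 713, 682 and 626 normalized counts in wildtype and 650.2, 651 and 562 in the KO-labelled libraries. KO-labelled replicate 3 was the lowest library, and the other 2 of its group lay between wildtype replicates 2 and 3 (log2 fold change -0.12, 95% interval -0.29 to 0.06, and -0.05 with KO-labelled replicate 3 left out). Cd34, a sialomucin of vascular and blood progenitor surfaces, had 871, 832 and 845 normalized counts in wildtype and 918, 899 and 872 in the KO-labelled libraries. Its groups did not overlap, although the highest wildtype and the lowest KO-labelled value were 871 and 872 (log2 fold change 0.08 ± 0.064 SE, limma adjusted p = 0.714). Itm2a had 1921, 2089.8 and 1918 normalized counts in wildtype and 2128, 2217 and 2090.3 in the KO-labelled libraries. The groups were separated by under 1 normalized count, between wildtype replicate 2 and KO-labelled replicate 3, and the log2 fold change was 0.12 ± 0.052 SE (limma adjusted p = 0.402). Esam, an adhesion molecule of endothelial tight junctions, and Emcn had overlapping groups and log2 fold changes of 0.04 and -0.14, that of Emcn being 0.03 without wildtype replicate 2 and -0.25 without wildtype replicate 1.

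Vwf encodes von Willebrand factor, the clotting protein that endothelium stores and that is richest in larger vessels, and lies on chromosome 6 of GRCm38 from 125546774 to 125686679. It had 1339, 1106 and 1248 normalized counts in wildtype and 986, 1151 and 898 in the KO-labelled libraries. KO-labelled replicates 1 and 3 lay below all wildtype libraries, while replicate 2 lay above wildtype replicate 2. The log2 fold change was -0.29 ± 0.095 SE (95% interval -0.49 to -0.08, limma adjusted p = 0.288). Without KO-labelled replicate 2 Vwf was called, at -0.38 (limma adjusted p = 0.0323), and it was also called with wildtype replicate 1 and KO-labelled replicate 2 both left out, at -0.32 (limma adjusted p = 0.0226). Over all settings tried its adjusted p ran from 0.0226 to 0.662.

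The surface antigen genes Ly6c1 and Ly6a, both enriched in endothelium, varied most among the endothelial genes. Ly6c1 had 233, 179 and 161 normalized counts in wildtype and 161, 223 and 120.0 in the KO-labelled libraries, and Ly6a had 67.2, 39.9 and 38.6 in wildtype and 48.0, 94.7 and 30.3 in the KO-labelled libraries. In both genes KO-labelled replicate 3 was the lowest library, and wildtype replicate 1 and KO-labelled replicate 2 were the highest pair. Their log2 intervals were wide, -0.70 to 0.26 for Ly6c1 and -0.70 to 0.98 for Ly6a. Both values are uncertain for a further reason, since 19.0% of the stretches of 75 bases in Ly6c1 transcripts also occur in other genes, mainly Ly6c2, and 6.33% of those of Ly6a, mainly in Ly6c1.

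Of the transcription factor genes that set endothelial identity, Sox17, needed in arterial endothelium, had 131, 149.7 and 127 normalized counts in wildtype and 118, 125 and 93.6 in the KO-labelled libraries. All KO-labelled values were lower, with KO-labelled replicate 3 farthest from the rest (log2 fold change -0.28 ± 0.16 SE, limma adjusted p = 0.569), and without that library it was -0.16. Sox17 shares 14.1% of its stretches of 75 bases, mainly with Gm37587, so its value is uncertain as well. Sox18, a related factor of vascular development, had 257, 279 and 296 normalized counts in wildtype and 337, 268 and 275 in the KO-labelled libraries, with overlapping groups and a log2 fold change of 0.08. Erg and Fli1, ETS-family factors that maintain endothelial gene expression, had overlapping groups, and their 95% intervals on the log2 scale ran from -0.32 to 0.31 and from -0.31 to 0.27. Across the 17 endothelial genes 6 log2 fold changes were positive and 11 negative, with a median of -0.04 (-0.10 without KO-labelled replicate 2 and -0.0077 without KO-labelled replicate 3). The groups did not overlap in 4 (23.5%), beside 16.3% of all tested genes.

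The 10 barrier genes fall into tight junction components and transporters. Cldn5, the claudin that closes the cleft between brain endothelial cells to small molecules, lies on chromosome 16 of GRCm38 from 18776847 to 18778262 and had 2197, 2298 and 2237 normalized counts in wildtype and 2380.0, 2391 and 2500.4 in the KO-labelled libraries. All 3 KO-labelled values were the higher ones, with the largest in replicate 3. The log2 fold change was 0.11 ± 0.047 SE (95% interval 0.01 to 0.21, limma adjusted p = 0.383), and it stayed between 0.09 and 0.13 over all settings tried. Ocln, encoding occludin, had 267, 255 and 212 normalized counts in wildtype and 210.3, 229.8 and 236 in the KO-labelled libraries, and Tjp1, encoding a scaffold protein of junctions that many cell types express, had 3209, 3153 and 3039 in wildtype and 3048, 3112 and 2844 in the KO-labelled libraries. Both overlapped between groups, with the 2 highest values of each gene in wildtype replicates 1 and 2, and their log2 fold changes were -0.11 and -0.06.

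Slco1c1, which carries thyroxine across the barrier and is also expressed by astrocytes, had the smallest adjusted p of the 39 genes and lies on chromosome 6 of GRCm38 from 141524368 to 141570177. It had 2338, 2099.9 and 2099.9 normalized counts in wildtype and 1869.9, 2004 and 1831 in the KO-labelled libraries. Every KO-labelled value lay below every wildtype value, with wildtype replicate 1 the highest library. The log2 fold change was -0.20 ± 0.056 SE (95% interval -0.31 to -0.08, limma adjusted p = 0.183). Over all settings tried the change ran from -0.26 to -0.14 and the adjusted p from 0.0711 to 0.586. Slco1a4, a transporter of bile acids and other organic anions in the same gene family, had 287, 236 and 244 normalized counts in wildtype and 243, 293 and 252 in the KO-labelled libraries. Its groups overlapped, and wildtype replicate 1 and KO-labelled replicate 2 were the 2 highest (log2 fold change 0.04). Slco1a4 lies on the same chromosome from 141805440 to 141856199, and so does the mural gene Abcc9, from 142587862 to 142702315. Emx1, whose control drives Cre in the KO-labelled group alone, is on chromosome 6 too, from 85187438 to 85204462. Whether sharing its chromosome bears on the values of these genes was not tested.

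Slc16a1, a carrier of lactate and ketone bodies that glia also express, had 3367, 3324 and 3305 normalized counts in wildtype and 3517, 3750.5 and 3432 in the KO-labelled libraries. The KO-labelled values were all higher, with the largest in replicate 2 (log2 fold change 0.10 ± 0.045 SE, limma adjusted p = 0.441). Slc2a1, the glucose transporter of the barrier and of some other cells, had 1228, 1385 and 1237 normalized counts in wildtype and 1291, 1231 and 1187 in the KO-labelled libraries. Wildtype replicate 2 stood highest and the other 5 libraries lay between 1187 and 1291 (log2 fold change -0.05, 95% interval -0.19 to 0.08). Mfsd2a, which takes up lysophospholipids carrying docosahexaenoic acid and restrains vesicle transport through the endothelium, had 1132, 1183 and 1182 normalized counts in wildtype and 1158, 1191 and 1136 in the KO-labelled libraries, with the groups fully interleaved. The 95% interval of its log2 change ran from -0.13 to 0.12, and that of Slc7a5, the steadiest of the 39 genes, from -0.06 to 0.10. Abcb1a, the drug efflux pump P-glycoprotein, had 463, 401 and 479 normalized counts in wildtype and 466, 543 and 421 in the KO-labelled libraries and overlapping groups, and it shares 17.1% of its stretches of 75 bases, mainly with Abcb1b. Over the 10 barrier genes 5 log2 fold changes were positive and 5 negative, with a median of 0.01 (-0.032 without KO-labelled replicate 2). The groups did not overlap in 3 (30%), beside 16.3% of all tested genes.

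**Figure D2:**
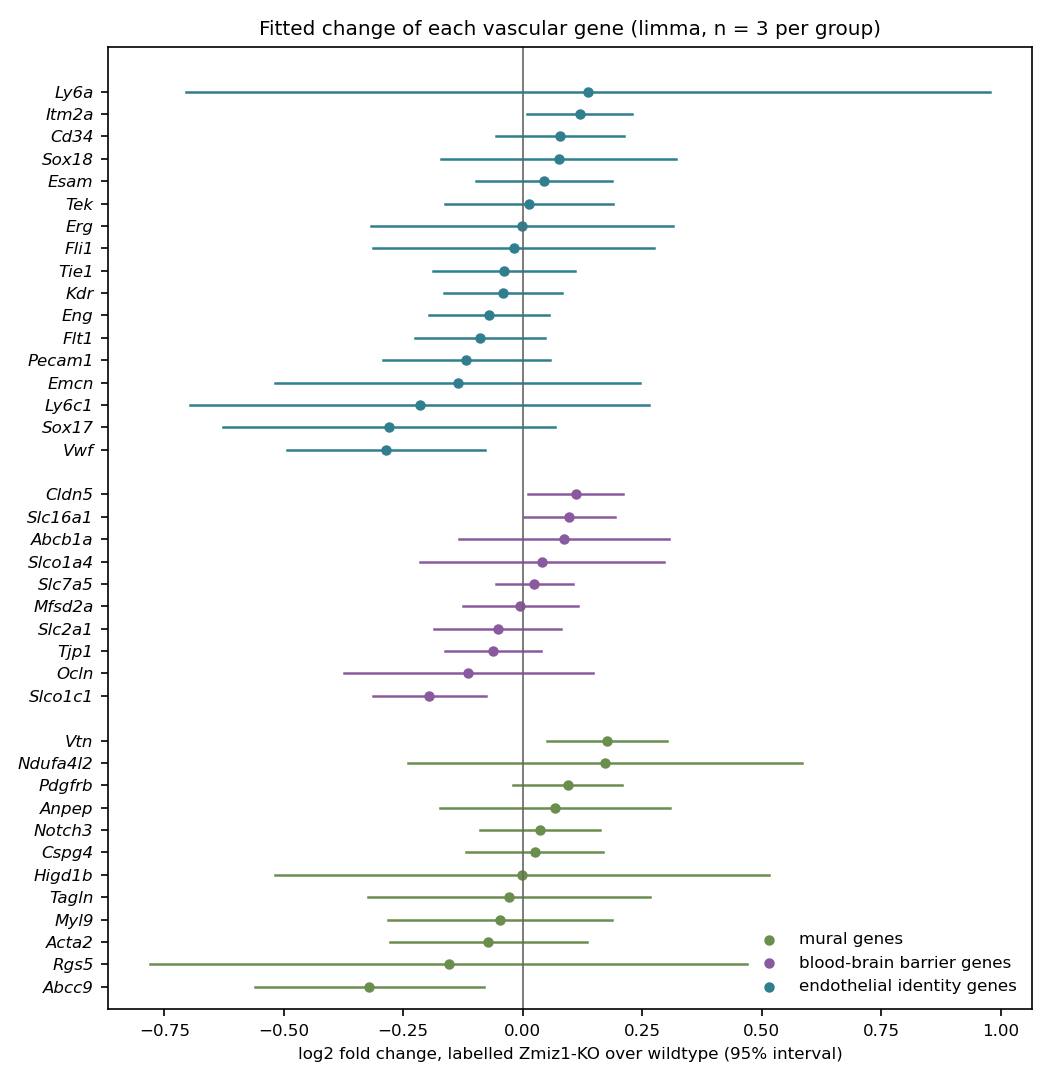
Log2 fold change of each of the 39 vascular genes, KO-labelled over wildtype (limma, 3 libraries per group), with points for the estimates and lines for the 95% intervals, coloured by gene group. The intervals of 7 genes lie to one side of 0, and none of the 39 genes had an adjusted p at or under 0.05.

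Among the 12 mural genes, Pdgfrb, the receptor for platelet-derived growth factor on pericytes and on fibroblasts, had 1317, 1313 and 1293 normalized counts in wildtype and 1407, 1345 and 1436 in the KO-labelled libraries. The wildtype values were tightly grouped and all lay below the KO-labelled ones (log2 fold change 0.09 ± 0.054 SE, limma adjusted p = 0.563). Vtn had 2059.5, 2177 and 2409 normalized counts in wildtype and 2611, 2357 and 2533 in the KO-labelled libraries. Wildtype replicate 3 was above KO-labelled replicate 2, and the other wildtype values were below the KO-labelled group (log2 fold change 0.18 ± 0.059 SE, 95% interval 0.05 to 0.30, limma adjusted p = 0.263). Vtn was called in the 4 libraries with high Y-linked expression alone, which leave out those same 2 libraries, at 0.28 (limma adjusted p = 0.0327), and its adjusted p ran from 0.0327 to 0.648 over all settings tried.

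Rgs5, a regulator of G-protein signalling used as a pericyte marker, lies on chromosome 1 of GRCm38 from 169655501 to 169695813 and had 2394, 3889 and 3772 normalized counts in wildtype and 3165, 2903 and 2769 in the KO-labelled libraries. Wildtype replicate 1 was the lowest of the 6 libraries and the other 2 wildtype libraries were the highest, with all KO-labelled values between them. The log2 fold change was -0.15 ± 0.23 SE (95% interval -0.78 to 0.47, limma adjusted p = 0.878). Without wildtype replicate 1 it was -0.38 and Rgs5 was called (limma adjusted p = 0.00989), and with KO-labelled replicate 2 left out as well it was -0.37 (limma adjusted p = 0.000467). Over all settings tried the adjusted p of Rgs5 ran from 0.000467 to 0.984, so its call rests on leaving out that 1 wildtype library. Higd1b, which is also enriched in pericytes, had 47.7, 81.3 and 69.1 normalized counts in wildtype and 76.0, 70.2 and 50.2 in the KO-labelled libraries with its lowest value again in wildtype replicate 1, and KO-labelled replicate 3 next to it.

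Abcc9, the sulfonylurea receptor subunit of the potassium channel of pericytes and smooth muscle, had 479.5, 411 and 411 normalized counts in wildtype and 326, 412 and 309 in the KO-labelled libraries. KO-labelled replicates 1 and 3 were the lowest, and replicate 2 lay just above wildtype replicates 2 and 3. Its log2 fold change of -0.32 ± 0.11 SE was the most negative of the 39 genes (95% interval -0.56 to -0.08, limma adjusted p = 0.291). Ndufa4l2, a gene enriched in pericytes, had 80.4, 103 and 89.1 normalized counts in wildtype and 129, 97.9 and 84.0 in the KO-labelled libraries, with KO-labelled replicate 1 the highest library and overlapping groups. Anpep, a membrane peptidase of pericytes, Cspg4, the NG2 proteoglycan shared with oligodendrocyte precursors, and Notch3, the Notch receptor of mural cells, had overlapping groups and log2 fold changes of 0.07, 0.02 and 0.04. Notch3 shares 4.23% of its stretches of 75 bases with other genes.

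The contractile genes of smooth muscle had overlapping groups throughout. Acta2, smooth muscle actin, had 355, 344 and 396 normalized counts in wildtype and 355, 358 and 327 in the KO-labelled libraries, with the highest value in wildtype replicate 3 and the lowest in KO-labelled replicate 3. Myl9, a myosin light chain, and Tagln, the actin-binding transgelin, had log2 fold changes of -0.05 (95% interval -0.28 to 0.19) and -0.03 (95% interval -0.32 to 0.27). The value of Tagln is uncertain, since 53.3% of its stretches of 75 bases also occur in other genes, mainly Gm48529. Across the 12 mural genes the groups did not overlap in 1 (8.33%), beside 16.3% of all tested genes. Their log2 fold changes were positive in 6 and negative in 6, with a median of 0.01. With single libraries left out this median ran from -0.01 without wildtype replicate 3 to 0.05 without wildtype replicate 1, and it was also negative without KO-labelled replicate 2.

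Summed over the 17 endothelial genes, the libraries held 12050.1, 11698 and 11709.7 normalized counts in wildtype and 11428.5, 12119 and 11155 in the KO-labelled group. The 10 barrier genes summed to 20655, 20284 and 20073 in wildtype and to 20347, 20832 and 20050 in the KO-labelled libraries. The sums of the 12 mural genes were 10971, 12121 and 12084.5 in wildtype and 12049, 11482 and 11442 in the KO-labelled libraries. All 3 sums overlapped between the groups. Libraries differed in how often they held a gene's extreme value: KO-labelled replicate 3 had the lowest value in 13 of the 39 genes and KO-labelled replicate 2 in 1, while wildtype replicate 1 had the highest value in 13 and the lowest in 9, and KO-labelled replicate 2 had the highest in 10. Among the 17 endothelial genes alone, KO-labelled replicate 3 was lowest in 7 and wildtype replicate 1 highest in 6, and among the 12 mural genes wildtype replicate 1 was highest in 4 and lowest in 4. Wildtype replicate 3 and KO-labelled replicate 2 were the libraries with high Xist (25307 and 24403 normalized counts), so each group held 1 female library. Wildtype replicate 1 and KO-labelled replicate 2 were the libraries with low Ttr, the transthyretin of the choroid plexus (98.8 and 89.8 normalized counts, beside 2874 to 7728 in the other 4). Their part in the values of Rgs5, Vwf and the Ly6 genes was not tested.

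The signalling pathways that act on these cells were read from lists of other genes, in which none was called with limma. RNA came from whole cortex, so which cells the reads of these genes came from is not known, and they are not values of vascular cells alone. The counts below stand beside 11.0% of all tested genes at an unadjusted p under 0.05 and 16.3% with groups that did not overlap. Where a list's gene with the most counts is given, counts are not corrected for length. Of 15 VEGF and angiopoietin genes 14 were tested, 5 positive and 9 negative, with 1 at an unadjusted p under 0.05, groups that did not overlap in 2, in opposite directions, and a median log2 fold change of -0.04. That 1 gene was Angpt1, the ligand with which pericytes activate Tek, with 627, 445 and 434 normalized counts in wildtype and 355, 423 and 319 in the KO-labelled libraries, all 3 of the latter lower (log2 fold change -0.45 ± 0.15 SE, limma adjusted p = 0.311). It shares 12.9% of its stretches of 75 bases with other genes, mainly Gm17473, and Nrp2, the list's gene with the most counts, had a log2 fold change of 0.06. Of 18 genes of Wnt and norrin signalling, which induces the barrier, 10 were positive and 8 negative, 1 had an unadjusted p under 0.05 and 1 had groups that did not overlap, with a median of 0.02. The first was Sox7, a relative of Sox17, with 188, 145 and 167 normalized counts in wildtype and 216, 240.4 and 180.0 in the KO-labelled libraries and overlapping groups, and Ctnnb1, with the most counts and 11.1% of its stretches of 75 bases shared, mainly with Ulk4, stood at -0.0042. Of 20 genes of platelet-derived growth factor, transforming growth factor beta and Notch signalling between endothelium and mural cells, 14 were positive and 6 negative, with a median of 0.05. The groups did not overlap in 5, higher in the KO-labelled libraries for Tgfbr2 (0.14), Hey1 (0.12) and Hes1 (0.22) and lower for Tgfbr1 and Efnb2. At an unadjusted p under 0.05 were 3, namely Tgfbr1, Efnb2 and the Notch ligand gene Dll4 (0.24, with overlapping groups). Tgfbr1, a receptor of that growth factor, had 1684, 1414 and 1488 normalized counts in wildtype and 1201, 1339.7 and 1316 in the KO-labelled libraries (log2 fold change -0.25, limma adjusted p = 0.168), and Efnb2, the ephrin of arterial endothelium and the gene with the most counts, stood at -0.15 (limma adjusted p = 0.218).

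Vascular markers, the basement membrane and hypoxia targets gave further lists without a called gene. Their counts stand beside 11.0% of all tested genes at an unadjusted p under 0.05 and 16.3% with groups that did not overlap. Of 23 other endothelial genes 2 had an unadjusted p under 0.05 and 5 had groups that did not overlap, 2 of them higher and 3 lower, with a median log2 fold change of -0.05. Nos3, the endothelial nitric oxide synthase, had 495, 511 and 481 normalized counts in wildtype and 399, 469 and 401 in the KO-labelled libraries, with the latter all lower (log2 fold change -0.23, limma adjusted p = 0.340), and Podxl, with the most counts of that list, stood at -0.10. Nos3 shares 14.5% of its stretches of 75 bases, mainly with Gm15587, so its value is uncertain. Lsr, the other gene at an unadjusted p under 0.05, went the other way, with all KO-labelled values higher (log2 fold change 0.24, limma adjusted p = 0.407). It shares 25.9% of its stretches of 75 bases, mainly with Gm4673. Of 17 other mural genes 3 had an unadjusted p under 0.05 and 1 had groups that did not overlap, with a median of -0.04. Ebf1, a transcription factor gene of pericytes and of some other cells, had 219, 262 and 220.3 normalized counts in wildtype and 328, 377 and 249.5 in the KO-labelled libraries (log2 fold change 0.43, limma adjusted p = 0.255), and Mcam, with the most counts, stood at -0.10. The list's sums did not overlap, at 3704, 3722 and 3706 normalized counts in wildtype and 3782, 4123 and 3788 in the KO-labelled libraries, but its mean log2 deviations overlapped and 10 of its 17 log2 fold changes were negative. In the vascular basement membrane list 10 of 12 log2 fold changes were positive, 3 genes had an unadjusted p under 0.05 and 2 had groups that did not overlap, with a median of 0.05. Its sums, in which genes of high counts weigh most, did not overlap, at 44764, 43741 and 42586 normalized counts in wildtype and 45985, 47065 and 45822 in the KO-labelled libraries, but its mean log2 deviations did, with wildtype replicate 1 above KO-labelled replicates 1 and 3. The meningeal fibroblast list was higher in the same libraries, and its part in these sums was not tested. The smallest p of the basement membrane list belonged to fibronectin, Fn1 (0.17, limma adjusted p = 0.235), which was called with the replicate number as a block (limma adjusted p = 0.0477), and its most counts to Sparc (0.15, limma adjusted p = 0.249), which was called without wildtype replicate 2 (0.21, limma adjusted p = 0.0432). The adjusted p of Fn1 ran up to 0.544 and that of Sparc up to 0.598 over all settings tried. Of 12 hypoxia targets, which include the barrier gene Slc2a1 and the growth factor gene Vegfa, 11 were negative, 1 had an unadjusted p under 0.05 and 1 had groups that did not overlap, with a median of -0.05, Pfkfb3 at -0.16 (limma adjusted p = 0.293) and Ldha, with the most counts, at 0.03.

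**Figure D3:**
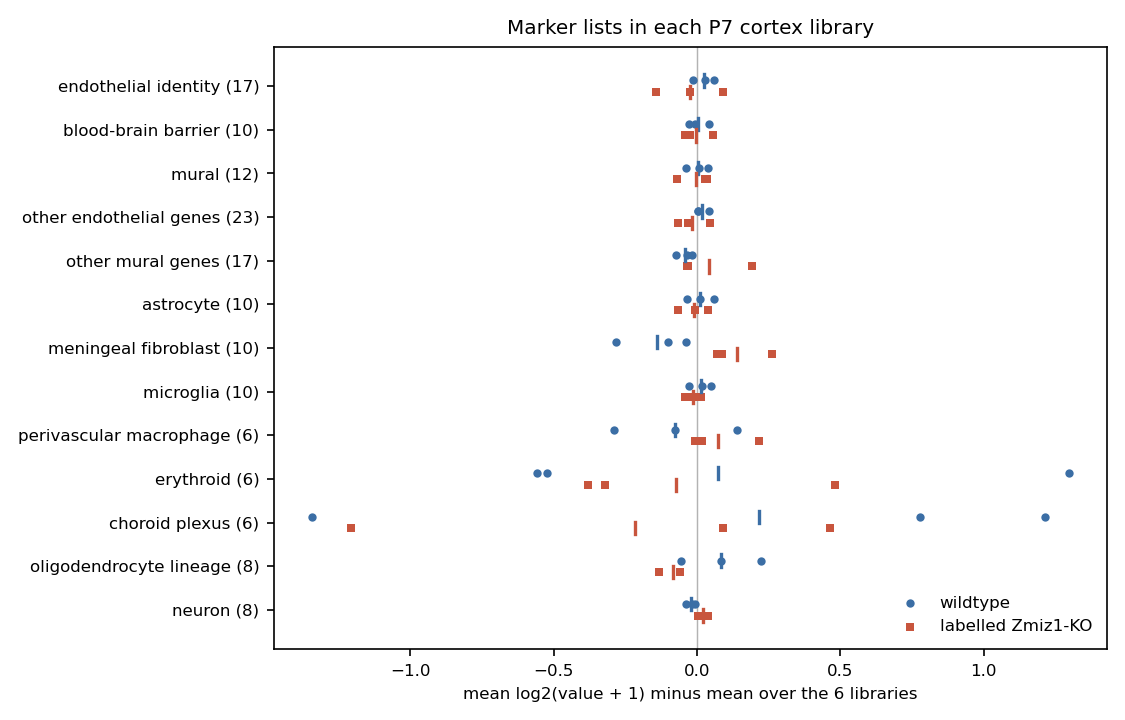
Mean over each marker list of log2(value + 1) minus the gene's mean over the 6 libraries, with circles for wildtype, squares for the KO-labelled libraries, vertical bars for the group means and the number of genes in brackets. The 3 vascular lists overlap between the groups, and the meningeal fibroblast list is higher in all 3 KO-labelled libraries than in wildtype. The oligodendrocyte lineage list is lower by a narrow gap, between -0.0547 in wildtype replicate 1 and -0.0585 in KO-labelled replicate 2. The neuron list is higher in this mean, also narrowly, with -0.0075 in wildtype replicate 2 and 0.0023 in KO-labelled replicate 1. Of its 8 log2 fold changes 5 are negative, Gad1 and Gad2 having the largest positive ones.

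Other cells of the dissected tissue were read from marker lists, beside the vascular genes that such cells also express. Counts of genes with separated groups, here and in the lists that follow, stand beside 16.3% of all tested genes. In meningeal fibroblast markers 10 of 10 log2 fold changes were positive with a median of 0.31, the groups did not overlap in 7, and the list summed to 18690.2, 21363 and 22350.3 normalized counts in wildtype and 24577, 26955 and 24175 in the KO-labelled libraries. Igf2 had the most counts (0.30, limma adjusted p = 0.437) and was called with the 2 libraries of low Ttr left out (0.13, limma adjusted p = 0.0482, the highest over all settings being 0.698). Its values are uncertain, since 60.7% of its stretches of 75 bases also occur in other genes, mainly Gm49394. Col1a2, a collagen chain, was called higher, with 3921, 3929 and 4348 normalized counts in wildtype and 4926, 5189 and 5059 in the KO-labelled libraries (log2 fold change 0.32 ± 0.047 SE, limma adjusted p = 0.00464). Without KO-labelled replicate 3 Col1a2 was not called, at an adjusted p of 0.0683 with limma, the highest over all settings tried, and the lowest was 0.000957. None of the 10 markers was at 0 in any library, and their part in the values of Pdgfrb and Vtn, which fibroblasts can share, was not tested. Of 10 astrocyte markers 4 were positive and 6 negative, the median was -0.03, and the overlapping sums were 75591, 81086 and 76013 in wildtype and 73451, 77824 and 70024 in the KO-labelled libraries. Aqp4, the water channel of astrocyte endfeet on vessels, was called lower, with 5615, 5150.4 and 5359 normalized counts in wildtype and 4355, 4531 and 4258 in the KO-labelled libraries (log2 fold change -0.29 ± 0.044 SE, limma adjusted p = 0.00499). It lost the call without KO-labelled replicate 1 (limma adjusted p = 0.0506) and without KO-labelled replicate 3 (0.0815, the highest over all settings tried, the lowest being 0.000146), and Slc1a2, with the most counts of the list, stood at -0.12. Slc1a2 was called with the 2 libraries of low Ttr left out (-0.25, limma adjusted p = 0.00153, the highest over all settings being 0.944). The groups also did not overlap in Slc1a3 (-0.10) and, in the other direction, Gfap (0.05), and Gjb6 stood at 0.23 with overlapping groups. Astrocyte markers thus lay in both directions, and the part of astrocytes in the values of Slco1c1 was not tested.

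Of 8 oligodendrocyte lineage markers 7 were negative and 4 had groups that did not overlap, with a median log2 fold change of -0.18 and sums that did not overlap, at 17651, 20171 and 18553 normalized counts in wildtype and 17260.4, 16937 and 16315 in the KO-labelled libraries. Olig1, a transcription factor gene with the most counts of the list, was called lower (-0.32, limma adjusted p = 0.00173), while Cspg4, which the precursors share with pericytes, was not. The 10 microglia markers had no call, 4 positive and 6 negative log2 fold changes and a median of -0.04. Groups did not overlap in 2 that lay in opposite directions, P2ry12 at -0.33 (limma adjusted p = 0.178) and C1qb at 0.19, and Csf1r, with the most counts and 13.9% of its stretches of 75 bases shared, mainly with Hmgxb3, stood at 0.03. The 6 perivascular macrophage markers had no call, 5 positive log2 fold changes, 1 with groups that did not overlap and a median of 0.17, with F13a1 at 0.41 (limma adjusted p = 0.205) and Mrc1 at 0.20. Of 6 erythroid genes 5 were tested, with no call, no separated groups, 2 positive and 3 negative log2 fold changes and a median of -0.06. Alas2, which shares 9.92% of its stretches of 75 bases, stood at -0.22 and Hba-a1, which shares 67.9% of its stretches of 75 bases with other genes, at -0.28, while its near copy Hba-a2 stood at 0.46 (-0.29 to 1.6 over all settings tried), and Hbb-bs was listed at 0 in 4 libraries. The 6 choroid plexus genes had no call, overlapping groups and a median of -0.53, with the smallest p for Kl (-0.40, limma adjusted p = 0.584, and -0.68 to -0.14 over all settings tried). Their sums were 362, 8500.3 and 6457 normalized counts in wildtype and 3303, 407 and 4960.2 in the KO-labelled libraries, so 1 library of each group was far below the rest. The log2 fold change of Ttr ran from -2.7 to 2.0 over all settings tried, with either sign. The 8 neuron markers had no call, 3 positive and 5 negative log2 fold changes and a median of -0.02, and overlapping sums (163804, 152441 and 157138 normalized counts in wildtype and 157653, 152761 and 157384 in the KO-labelled libraries), but their mean deviation in the plot of marker lists was higher in each KO-labelled library. Rbfox3, with separated groups, stood at -0.09 (limma adjusted p = 0.387) and Tubb3, with the most counts, at -0.04. The larger differences were those of Gad1 (0.30) and Gad2 (0.33), genes of inhibitory neurons with overlapping groups. Gad1 was called without wildtype replicate 2 (0.41, limma adjusted p = 0.00818), and both were called with the replicate number as a block (limma adjusted p = 0.00130 and 0.00502), with adjusted p values up to 0.729 for Gad1 and 0.818 for Gad2 over all settings tried.

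The promoters of 27 of the 39 vascular genes were matched by symbol in RefSeq (GRCm38.p6), each as 250 bases before to 50 after a gene's start. The letters CCGGAAG, a site of ETS factors such as Erg and Fli1, were found on either strand in 0 of the 27 genes, beside 9.93% of all genes in that table. The letters ACAAAG, a site of SOX factors such as Sox17 and Sox18, were found in 6 of the 27 (22.2%), beside 21%, and an E-box, CANNTG, in 21 of the 27 (77.8%), beside 75%. The promoters of Slco1c1 (chr6:141524104-141524403, plus strand) and Cldn5 (chr16:18776597-18776896, plus strand) are shown because these barrier genes had separated groups in opposite directions. Capitals mark ACAAAG or its reverse complement, found at 2 places in Slco1c1 and at 0 in Cldn5, as letters and not as shown binding sites.
Slco1c1: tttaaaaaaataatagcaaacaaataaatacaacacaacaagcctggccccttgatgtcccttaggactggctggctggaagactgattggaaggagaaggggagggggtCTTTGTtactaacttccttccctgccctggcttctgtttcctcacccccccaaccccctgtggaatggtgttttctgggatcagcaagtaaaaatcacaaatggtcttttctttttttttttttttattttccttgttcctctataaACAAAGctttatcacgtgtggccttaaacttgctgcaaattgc
Cldn5: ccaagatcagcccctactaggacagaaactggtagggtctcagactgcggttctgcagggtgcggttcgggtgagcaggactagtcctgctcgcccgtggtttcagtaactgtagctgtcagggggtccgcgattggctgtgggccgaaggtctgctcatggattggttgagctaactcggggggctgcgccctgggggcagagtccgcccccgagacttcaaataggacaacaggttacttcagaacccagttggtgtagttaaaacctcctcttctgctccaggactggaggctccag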

How the data were processed

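RNA from dissected P7 cortex was sequenced in 6 libraries. The authors aligned reads to mm10 with STAR and used DESeq2 in BaseSpace to normalize the counts per gene. Deposited are these signal values, called normalized counts, with 1 column per library. Versions and annotation are not stated. High values are not whole multiples of the lowest step, so whole reads were not recovered and tests for counts were not run. Values were transformed to log2(value + 1) and the groups compared in limma 3.58.1 under R 4.3.3 with trend and robust estimation, two-sided, over the 15800 genes with at least 10 in at least 3 libraries, with Benjamini-Hochberg adjustment over all of these, and called at an adjusted p at or under 0.05. An exact permutation test of 3 libraries against 3 cannot give a p below 0.1, which was its value for the 8 vascular genes with separated groups. The 95% intervals are limma's.

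All 39 vascular genes are named, as are Zmiz1, Emx1 and, from each other list, each called gene, the gene with the most counts and, without a call, the one with the smallest p. Slc1a3, Gfap, Gjb6, Gad1, Gad2, Hba-a2, C1qb, Dll4, Tgfbr2, Hey1, Hes1 and Lsr were chosen with their values in view. The members and lists were chosen with earlier results of these data known. Coordinates, merged exon lengths and shared stretches of 75 bases came from GENCODE on GRCm38, and promoters from RefSeq. Depth was estimated at 15494272 to 17857835 counted reads, which with 3 libraries per group sets the precision. The alternatives were limma-voom, median-ratio, upper-quartile and trimmed-mean scaling, 2 other filters, pseudocounts of 0.1 and 10, no robust estimation, log2 Xist as a covariate, leaving out single libraries, and a block for the replicate number. Chosen after seeing the data were the 4 libraries with high Y-linked expression alone and the 4 left without the 2 of low Ttr. The procedure was tested on simulated data. Plots were made in matplotlib 3.10.9 under Python 3.11.15.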

Additional observations from a re-analysis of the deposited data

How the results depend on the processing

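Under 19 alternatives, 741 log2 fold changes of the 39 vascular genes were recomputed. In 736 of them the gene remained on its side of the threshold, in 5 a gene was called that had not been, and no called value reversed. Among uncalled values 52, in 18 genes, took the other sign, the largest of these genes' changes being 0.22 in size, and 21 genes kept their sign throughout. The limma-voom test, the scalings, the filters, the pseudocounts, the Xist covariate and the estimation without robustness each called 0 vascular genes. Several of these settings could change little. The median-ratio factor was 1 in every library, so that setting repeated the main fit, and its values are counted among the 741. Upper-quartile and trimmed-mean factors lay between 0.9936 and 1.0039. The filters removed none of the 39 genes, which had at least 10 normalized counts in every library.

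With each library left out in turn, the count of vascular genes called ran from 0 to 1, that of endothelial genes from 0 to 1 and that of mural genes from 0 to 1, and over all tested genes the count ran from 12 to 151. The median log2 fold change ran from -0.10 to -0.0077 over the endothelial genes, from -0.032 to 0.014 over the barrier genes and from -0.01 to 0.05 over the mural genes. In the 4 libraries with high Y-linked expression alone, 146 genes were called, 1 of them vascular, the mural gene Vtn, and the medians were -0.042 over the barrier genes and -0.030 over the mural genes. Without the 2 libraries of low Ttr, 354 genes were called, 2 of them vascular, of which 1 was endothelial (Vwf) and 1 mural (Rgs5). Both of these choices were made after seeing the data. Without robust estimation 17 genes were called. The cause of these shifts was not tested.

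With the replicate number as a block, 168 genes were called and 0 of them were vascular, but the deviations of libraries with the same number were not positively correlated (-0.01, -0.11 and -0.01), and neither the labels nor the values pair them. The tests for counts in edgeR and DESeq2 were not run, since whole reads were not recovered. The estimated 15494272 to 17857835 counted reads per library limit the precision of genes of low counts such as Ly6a and Higd1b.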

Other observations

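Ttr had 98.8, 7728 and 5871 normalized counts in wildtype and 2874, 89.8 and 4468 in the KO-labelled libraries, with overlapping groups. Hba-a1, whose reads are shared with Hba-a2, had 7751, 6535 and 8678 normalized counts in wildtype and 6516, 7530.1 and 5023 in the KO-labelled libraries, with overlapping groups.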
